A study of Homo sapiens with 12 samples.

Results

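STIM1, RRM1, NUP98, TRIM21, TRIM68, ILK, TAF10, ARFIP2, RHOG and PGAP2 are 10 non-globin genes of band 11p15 that lie on either side of the beta-globin cluster. They were picked by symbol, as neighbours of the cluster that were lower in cells without HRG1, so their differences between genotypes are given here as a description with no test. The count table held 28278 genes, and all 10 were among the 15805 that passed a filter on low counts. RNA was sequenced from K562 cells, a human erythroleukaemia line that makes embryonic and fetal globins. There were 4 groups of 3 libraries: wild-type cells (WT) and cells knocked out for HRG1 (KO), a heme transporter encoded by SLC48A1, each either untreated or given sodium butyrate, a histone deacetylase inhibitor that drives this line towards the erythroid lineage. Per the labels' protocols, plated cells received 0.75 mM butyrate at 24 h and a further dose 48 h after that, and were harvested 6 h later. The series design places all samples at day 8 of differentiation. How the knockout was made, how many KO clones were used and whether replicates were separate cultures are not given in the sources used here, so p-values measure only the spread between these samples. In these bulk samples, fewer cells of a type and less RNA per cell cannot be told apart.

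The beta-globin genes sit in a row on the short arm of chromosome 11 under a shared distal enhancer, the locus control region, and olfactory receptor genes surround them. The flanking genes described here are not erythroid genes but serve functions that most cells need: nuclear transport, transcription initiation, deoxynucleotide supply, calcium entry, cytoskeletal and adhesion signalling, lipid-anchor processing, Golgi traffic and protein ubiquitination. Sodium butyrate raises histone acetylation genome-wide and is a classical inducer of globin genes.

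Library totals ran from 19963594 to 30348538 counts, so that 3 counts, taken as the limit of detection, corresponded to 0.0989 to 0.15 CPM, a count scaled to library size, for counting error only. The knockout's target SLC48A1 stood at 73.7 ± 8.42 CPM in untreated WT and 5.94 ± 2.74 in untreated KO (SD, n = 3). All 6 erythroid markers listed had at least 10 counts in every library. Summed, they spanned 1045 to 1553 CPM in untreated WT and 1807 to 3258 CPM in untreated KO, without overlap, and 909 to 2699 CPM in treated WT and 1226 to 2363 CPM in treated KO. Summed markers of other lineages moved with the groups too. The 5 markers of granulocytes and monocytes spanned 16.2 to 36.4 CPM over the WT libraries and 36.7 to 200 CPM over the KO libraries. The 3 fibroblast markers spanned 1.9 to 5.02 CPM over untreated and 43.9 to 154 CPM over treated libraries. Megakaryocyte markers spanned 5.4 to 20.2 CPM in untreated KO and 29 to 57.8 CPM in untreated WT, and reached 55.6 to 82.1 CPM in treated KO and 112 to 224 CPM in treated WT, with PF4 at 3 counts or fewer in every library. The 4 lymphoid markers stayed within 4.07 to 13.1 CPM when summed, with MS4A1 at 3 counts or fewer in every library. Within that sum CD3E was higher in KO, by a log2 difference of 4.65 in untreated and 6.16 in treated cells. Few of these markers had at least 10 counts in every library, so a sum can hide single genes. The counts were 2 of 4 megakaryocyte, 1 of 5 granulocyte and monocyte, 1 of 4 lymphoid and 1 of 3 fibroblast markers. The part of these cell types in the results below was not tested. The ribosomal RNA gene RNA28SN5 took 2.3% to 5.63% of the counts of libraries numbered 1 and 0.673% to 2.86% in the others, and within each group its share was highest in replicate 1. On the second principal component, replicate 1 of treated WT (40.9) and of treated KO (4.21) lay apart from the other treated libraries (-84.8 to -74.3).

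Positions were read from RefSeq on GRCh38.p14, and distances were taken from the interval of HBG1, HBG2 and HBE1 at chr11:5248269-5269945. Toward the short-arm end the order by distance was TRIM68 (640.0 kb), TRIM21 (854.6 kb), RRM1 (1109.3 kb), STIM1 (1155.1 kb), RHOG (1407.3 kb), PGAP2 (1421.9 kb) and NUP98 (1450.7 kb). Toward the centromere it was ARFIP2 (1206.6 kb), ILK (1333.8 kb) and TAF10 (1336.3 kb). ILK and TAF10 overlap on opposite strands. They share 2374 exon bases in GENCODE v29, which is 68.1% of the exon bases of ILK and 38.9% of those of TAF10. Whether the authors' counting used strand is not given in the sources used here, so the values of ILK and TAF10 are uncertain. The other overlaps with coding genes were small, with 133 exon bases of NUP98 shared with CHRNA10, 20 shared by NUP98 and PGAP2, and 33 shared by ARFIP2 and TIMM10B.

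RefSeq promoter sequences on GRCh38.p14 were found for 9 of the 10 genes, all but RHOG. Bases before the start site are printed for the 4 genes nearest to the cluster, to show what their promoters share and where they differ. All 4 had lower means in KO. Yet STIM1 and RRM1 overlapped between genotypes in both treatments, and TRIM68 did so with butyrate. The TRIM68 stretch leaves out the 28 bases next to the start, which lie in an exon of a coding gene. Capitals mark matches on either strand to the CCAAT box, to the GC box written GGGCGG, and to the core of a GATA site, written AGATAA. The STIM1 stretch lies at chr11:3855414-3855663 and the RRM1 stretch at chr11:4094435-4094684, both on the plus strand. RefSeq's start site for STIM1 in that table lies inside the annotated span of the gene, so the stretch does too. The TRIM21 stretch lies at chr11:4393703-4393952 and the TRIM68 stretch at chr11:4608260-4608481, both on the minus strand.
RRM1: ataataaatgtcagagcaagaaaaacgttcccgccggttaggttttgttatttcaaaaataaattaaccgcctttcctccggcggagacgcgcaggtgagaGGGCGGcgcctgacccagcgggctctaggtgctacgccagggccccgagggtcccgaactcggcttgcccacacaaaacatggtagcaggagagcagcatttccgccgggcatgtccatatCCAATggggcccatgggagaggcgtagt
STIM1: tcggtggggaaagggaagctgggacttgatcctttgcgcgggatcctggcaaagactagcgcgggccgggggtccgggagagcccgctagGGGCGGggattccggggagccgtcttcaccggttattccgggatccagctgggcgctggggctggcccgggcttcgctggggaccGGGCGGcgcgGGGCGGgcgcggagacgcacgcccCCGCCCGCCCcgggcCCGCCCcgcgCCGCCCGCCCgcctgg
TRIM21: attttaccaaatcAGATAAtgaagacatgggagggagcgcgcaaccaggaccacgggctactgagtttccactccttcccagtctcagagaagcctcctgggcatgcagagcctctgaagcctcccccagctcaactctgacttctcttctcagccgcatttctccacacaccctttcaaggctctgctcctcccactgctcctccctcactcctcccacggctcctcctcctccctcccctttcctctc
TRIM68: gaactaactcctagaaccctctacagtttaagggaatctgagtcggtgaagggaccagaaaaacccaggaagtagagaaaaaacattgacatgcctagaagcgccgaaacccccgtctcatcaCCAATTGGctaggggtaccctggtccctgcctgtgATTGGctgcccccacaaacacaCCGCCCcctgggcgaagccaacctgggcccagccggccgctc

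The STIM1 stretch of 250 bases was 77.2% G or C and held 8 GC boxes, some of them overlapping one another, and none of the other motifs. That of RRM1 was 56.4% G or C, with 1 CCAAT box and 1 GC box. The TRIM21 stretch (57.2%) held 1 GATA core and neither of the others. The TRIM68 stretch of 222 bases was 56.8% G or C and held 3 CCAAT boxes, 2 of them overlapping, and 1 GC box. Among 27305 RefSeq promoters of 250 bases, 33.0% held a CCAAT box, 42.3% a GC box and 9.4% a GATA core on either strand. Over the 222 bases that match the TRIM68 stretch these shares were 31.0%, 38.8% and 8.4%. RRM1, TRIM21 and TRIM68 were thus close in base composition, with STIM1 apart. No motif was shared by all 4 stretches, and a match is a run of letters and not a measured binding site.

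In mean level, all 10 genes were lower in KO than in WT without butyrate, and again with it. The median log2 difference, KO minus WT, was -0.70 in untreated and -0.68 in treated cells, against 0.02 and 0.00 over all 15805 genes, of which 48.9% and 50.1% were lower. Every KO library lay below every WT library for 7 of the 10 genes in untreated cells, where 20.2% of all genes did so. The same held for 7 of 10 in treated cells, where it held for 16.0% of all genes. Nothing is read from these shares, since this contrast chose the genes. By the mean of both differences the order from the lowest was RHOG, ILK, TAF10, PGAP2, TRIM68, NUP98, TRIM21, ARFIP2, RRM1 and STIM1. RHOG stood apart at -1.82. The values from TAF10 to TRIM21 ran only from -0.77 to -0.64, and these neighbours in the order did not differ beyond their standard errors of 0.19 to 0.34. STIM1 came last at -0.19.

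**Figure D1:**
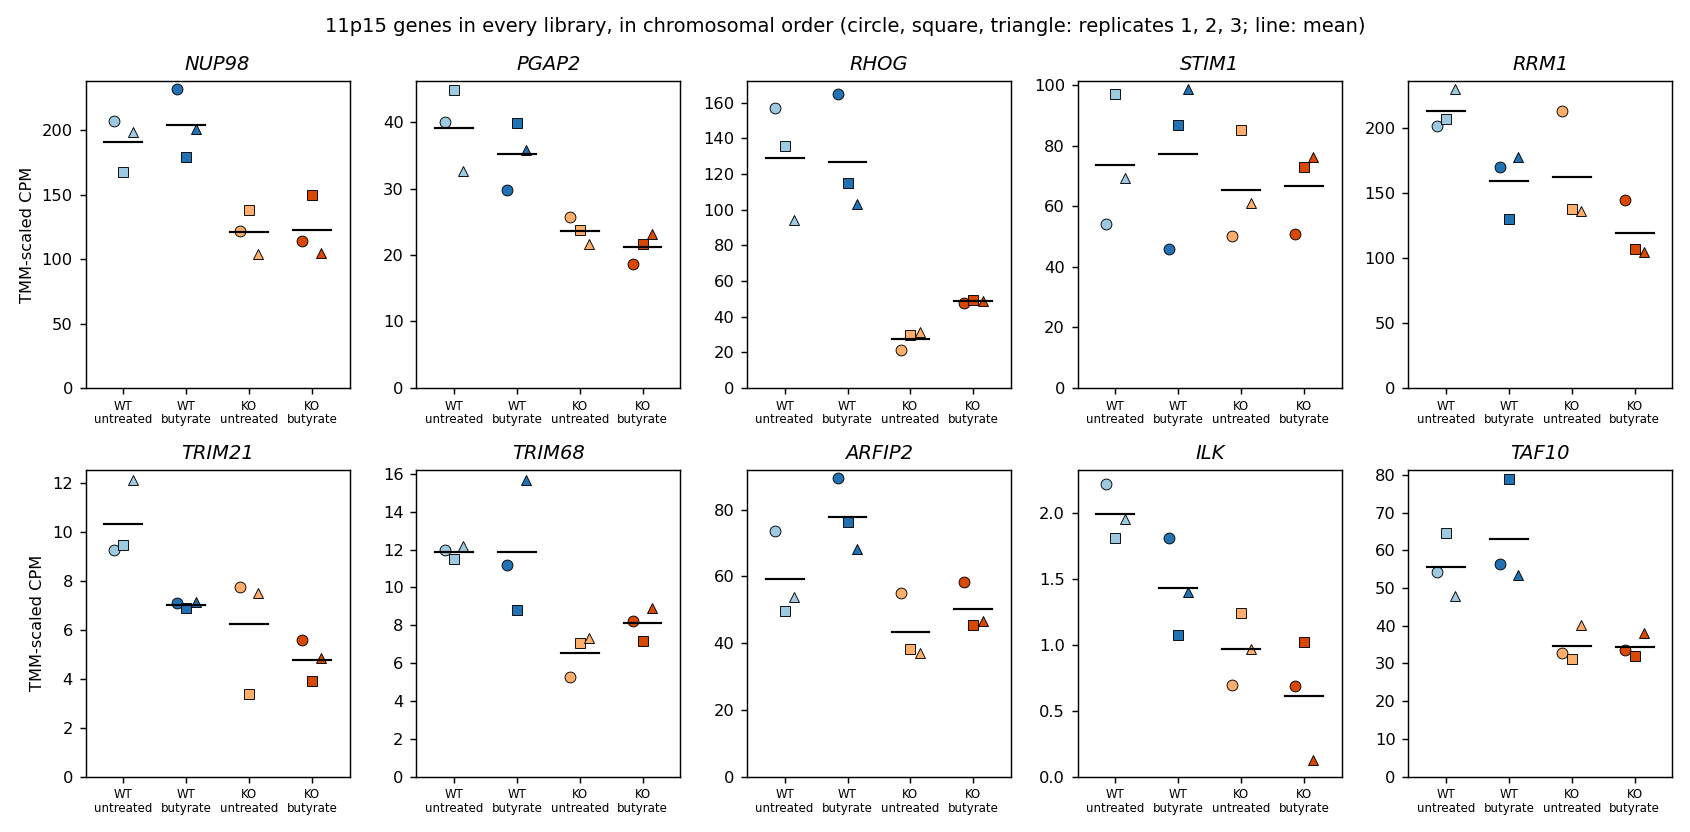
TMM-scaled CPM (vertical axes, from 0) of the 10 genes in every library, with circles, squares and triangles for replicates 1, 2 and 3 and a line for the mean of each group. RHOG shows the widest gap between WT and KO, while STIM1 and RRM1 overlap between genotypes in both treatments.

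Levels below are CPM scaled by TMM, which are not divided by gene length and so are compared between groups and not between genes. NUP98, a nucleoporin whose phenylalanine-glycine repeats line the channel of the nuclear pore, lies at chr11:3675010-3797554. NUP98 stood at 207, 168 and 199 CPM in untreated WT and at 122, 138 and 104 CPM in untreated KO. With butyrate it stood at 232, 179 and 201 CPM in WT and at 114, 150 and 105 CPM in KO. The genotypes were separate in both treatments. The KO mean was 63.3% of WT in untreated cells (log2 difference -0.66, SE 0.19) and 60.3% in treated cells (-0.73, SE 0.19).

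TAF10, a shared subunit of the transcription factor TFIID and the histone acetyltransferase complex SAGA, lies at chr11:6606294-6612216. TAF10 gave 54.3, 64.7 and 47.9 CPM in untreated WT against 32.8, 31.2 and 40.2 CPM in untreated KO. Treated WT gave 56.5, 79.0 and 53.5 CPM and treated KO 33.5, 31.9 and 38.0 CPM. Each KO library was below each WT library of its treatment. The KO mean was 62.4% of WT without butyrate (-0.68, SE 0.21) and 54.7% with it (-0.87, SE 0.21). ILK, an adaptor of integrin adhesions with a kinase-like fold, lies at chr11:6603774-6610870 and was barely counted, with 4 to 58 counts per library. Its level was 2.22, 1.81 and 1.95 CPM in untreated WT and 0.696, 1.24 and 0.97 CPM in untreated KO. It was 1.81, 1.07 and 1.4 CPM in treated WT and 0.689, 1.02 and 0.129 CPM in treated KO. The genotypes did not overlap, but the log2 differences of -1.04 (SE 0.65) and -1.21 (SE 0.66) were the least precise of the 10. Leaving out replicate 3 of treated KO, the library with 4 counts, gave -0.74 in place of -1.21, and leaving out replicate 2 of that group gave -1.83.

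RHOG, a small GTPase that signals to the actin cytoskeleton through ELMO and DOCK proteins, lies at chr11:3826978-3840959. RHOG reached 157, 136 and 94.2 CPM in untreated WT and only 21.2, 29.6 and 31.1 CPM in untreated KO. In treated WT it reached 165, 115 and 103 CPM, and in treated KO 47.5, 49.1 and 49.0 CPM. The lowest WT library was thus well above the highest KO library in either treatment. The KO mean was 21.1% of WT in untreated cells (-2.24, SE 0.25) and 38.1% in treated cells (-1.39, SE 0.24). Without the libraries numbered 1 these differences were -1.94 and -1.17.

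STIM1, the calcium sensor of the endoplasmic reticulum that opens ORAI channels when the store empties, lies at chr11:3854604-4093210. STIM1 measured 54.2, 97.2 and 69.3 CPM in untreated WT and 50.1, 85.1 and 61.2 CPM in untreated KO. It measured 45.9, 86.9 and 98.8 CPM in treated WT and 51.0, 73.0 and 76.2 CPM in treated KO. The groups overlapped throughout, and replicate 1 was the lowest library of each. The KO mean was 89.0% of WT in untreated and 86.4% in treated cells, with log2 differences of -0.17 and -0.21 (SE 0.31 for each). The sign turned to 0.09 in untreated cells when replicate 2 of untreated WT was left out, and the values without single libraries ran from -0.43 to 0.09. Leaving out replicate 3 of treated WT brought the treated difference to -0.02, and leaving out its replicate 1 brought it to -0.49.

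RRM1, the large subunit of ribonucleotide reductase, which makes deoxynucleotides for DNA synthesis, lies at chr11:4094685-4138932. RRM1 was at 202, 207 and 230 CPM in untreated WT and at 213, 138 and 136 CPM in untreated KO. It was at 170, 130 and 178 CPM in treated WT and at 145, 107 and 105 CPM in treated KO. Replicate 1 of untreated KO lay among the WT libraries, while the other 2 were below all of them. The KO mean was 76.3% of WT in untreated (-0.39, SE 0.22) and 74.6% in treated cells (-0.42, SE 0.22). The untreated difference was -0.63 without replicate 1 of untreated KO and -0.69 without all libraries numbered 1.

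PGAP2, a Golgi protein that helps remodel the lipid of GPI anchors, lies at chr11:3797720-3826371. PGAP2 came to 40.1, 44.9 and 32.7 CPM in untreated WT and 25.7, 23.8 and 21.7 CPM in untreated KO. Its treated libraries came to 29.8, 39.9 and 35.8 CPM in WT and 18.7, 21.6 and 23.2 CPM in KO. The genotypes were separate in both treatments, and the log2 difference was -0.73 in each (SE 0.2). ARFIP2, or arfaptin-2, which binds Arf-family GTPases on Golgi membranes, lies at chr11:6476519-6481331. ARFIP2 had 73.5, 49.7 and 53.9 CPM in untreated WT and 55.0, 38.3 and 36.9 CPM in untreated KO, and these overlapped. Its treated values of 89.3, 76.3 and 68.1 CPM in WT and 58.3, 45.4 and 46.5 CPM in KO did not. The log2 differences were -0.45 and -0.64 (SE 0.22 for each), and the untreated one was -0.26 when replicate 1 of untreated WT was left out.

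TRIM21, a ubiquitin ligase that also binds antibodies in the cytosol, lies at chr11:4384897-4393702, and TRIM68, a ubiquitin ligase of the same family, at chr11:4598672-4608231. TRIM21 held 9.26, 9.47 and 12.1 CPM in untreated WT and 7.76, 3.38 and 7.52 CPM in untreated KO. Treated WT held 7.1, 6.87 and 7.12 CPM and treated KO 5.56, 3.9 and 4.83 CPM. KO was below WT without overlap in either treatment, by log2 differences of -0.72 and -0.56 (SE 0.34 for each). The untreated value was -0.46 without replicate 2 of untreated KO. TRIM68 was at 12, 11.5 and 12.2 CPM in untreated WT and at 5.24, 7.04 and 7.32 CPM in untreated KO, with no overlap. With butyrate it was at 11.2, 8.83 and 15.7 CPM in WT and at 8.22, 7.17 and 8.93 CPM in KO, where the highest KO library passed the lowest WT library. The differences were -0.86 and -0.56 (SE 0.28 for each), and the treated one was -0.33 without replicate 3 of treated WT.

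The genes between and around these 10 were placed on the same scale. Of the cluster itself only HBE1, HBG1 and HBG2 are described here. HBG1 and HBG2, summed since near-identical genes share reads, came to 8338 ± 3182 CPM in untreated WT and 2042 ± 619 CPM in untreated KO. With butyrate they summed to 21628 ± 8018 CPM in WT and 2793 ± 608 CPM in KO (SD, n = 3). Leaving out the cluster and the 10, a further 34 tested genes lay within 2 Mb, with median log2 differences of -1.17 and -1.01. These medians stayed as given when the 6 genes with 0 counts in a whole group were set at the 3-count bound. The 34 include olfactory receptor genes, which passed the filter on low counts only through WT. Without them, a choice made after seeing the data, 26 genes were left, of which 21 were lower in each treatment, with medians of -0.73 and -0.83. The 26 still hold genes with few counts. UBQLNL and CNGA4, with means of 8.75 and 6.33 counts, could have passed the filter through WT alone. TRIM22, higher in KO, passed through KO alone. The share of the 26 is thus a description only. Among the 15 of the 26 with a mean of at least 100 counts, 13 were lower in each treatment, with medians of -0.64 and -0.76. The 10 genes, at -0.70 and -0.68, lay close to these neighbours.

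The same counts were taken over longer distances, again without olfactory receptor genes and with a mean of at least 100 counts. Up to 5 Mb toward the short-arm end, 46 of 56 other genes were lower in untreated KO (median -0.68) and 48 in treated KO (-0.67). On the centromere side, 24 of 27 others were lower over the same distance in each treatment, with medians of -0.54 and -0.61. From 5 to 10 Mb on that side, over all tested genes, 18 and 19 of 29 were lower, with medians of -0.25 and -0.32. The rest of 11p with the cluster, 298 genes without the 10, had medians of -0.36 and -0.34, and the 569 genes of 11q had -0.04 in both treatments. A shift of this size was not particular to the region: over whole chromosomes the medians ran from -0.78 and -0.86 on chromosome 7 to 0.93 and 0.82 on chromosome 13.

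**Figure D2:**
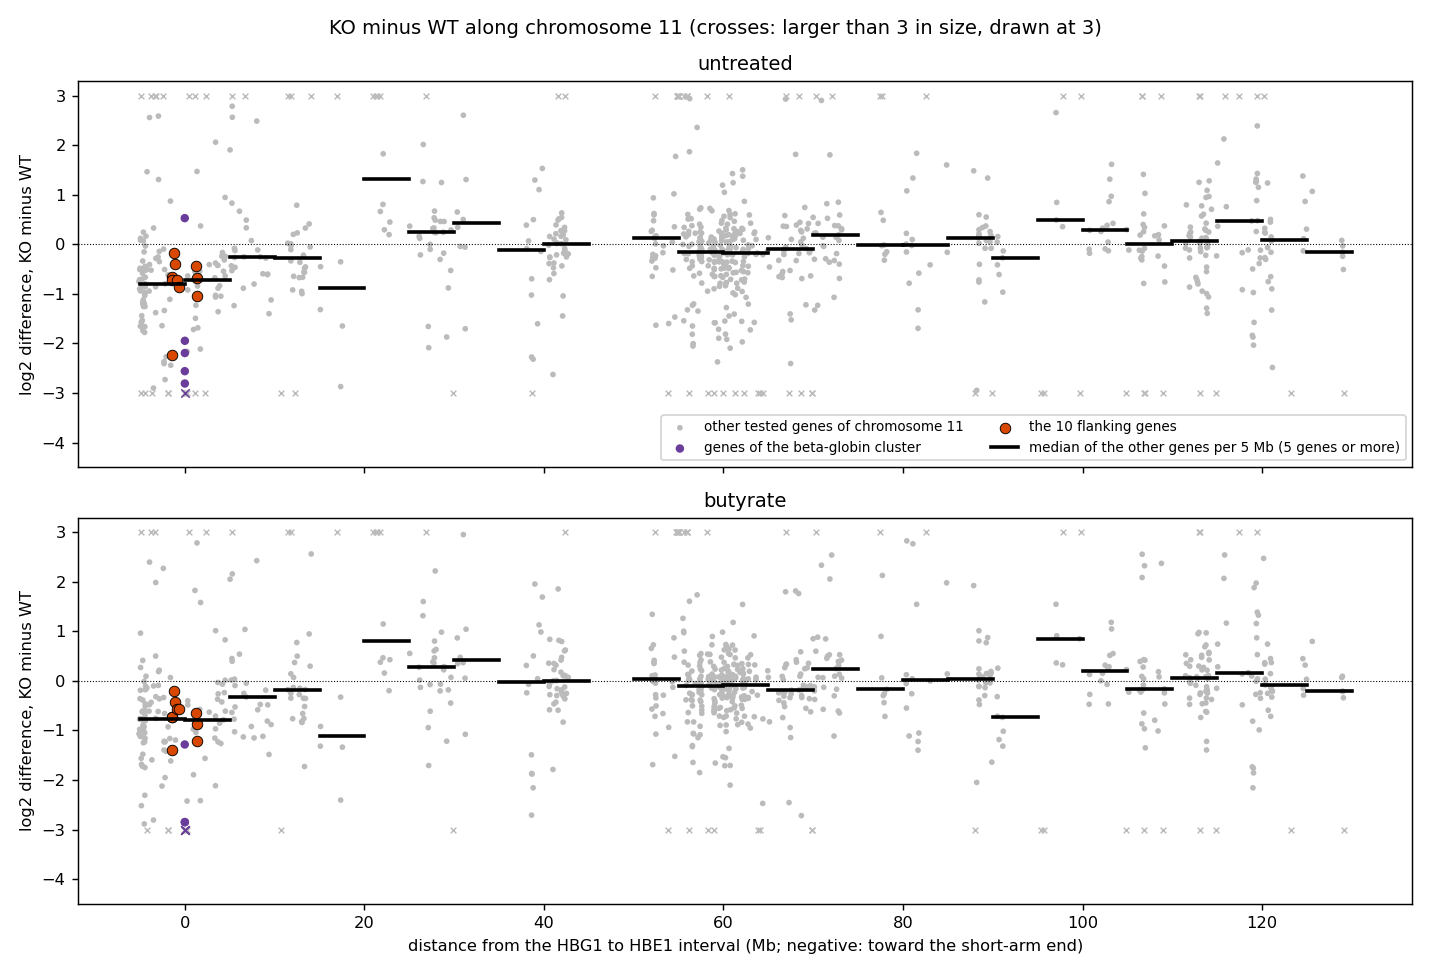
Log2 difference, KO minus WT, of tested genes along chromosome 11 against distance in Mb from the HBG1 to HBE1 interval (0), for untreated (top) and treated cells (bottom); bars are medians of other genes per 5 Mb, and crosses are values larger than 3 in size. The 10 flanking genes lie below 0 in both panels, as do the medians of the other genes within 5 Mb on either side.

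A list of further 11p15 genes held 72 symbols besides the globins, of which 64 were tested, and 55 of these were lower in untreated KO and 54 in treated KO. Their medians of -0.54 and -0.64 lay on the same side of 0 as those of the 10. Exceptions included APBB1, an adaptor of the amyloid precursor protein, and DCHS1, a large cadherin. APBB1 averaged 2.37 CPM in untreated WT and 24.6 CPM in untreated KO, and DCHS1 1.17 and 3.25 CPM.

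Genes listed as partners of the 10 were not lower as a group. For TRIM21 and TRIM68 the list held TRIM genes coded on other chromosomes, taken as relatives. Among the partners tested, NUP160 and FERMT3 lie on chromosome 11, 42.5 and 58.9 Mb from the cluster, and the rest on other chromosomes. Of 74 listed partners 70 were tested, and 37 were lower in untreated KO and 35 in treated KO, with medians of -0.03 and 0.00. NUP98 was at -0.66, while 17 other nucleoporin and pore genes ran from SEH1L at -1.08 to NUP107 at 0.45, with a median of -0.03. TAF10 was at -0.68, and the 16 other TFIID and SAGA genes ran from TAF6 at -1.35 to TAF11 at 0.79 around a median of -0.11. RRM1 was at -0.39, against -0.03 for RRM2 and 0.17 for RRM2B, the small subunits that pair with it. STIM1 was at -0.17 and lay inside the range of its partners, from the channel gene ORAI2 at -2.02 to the second sensor STIM2 at 0.94.

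RHOG was at -2.24 in untreated cells, and among its 8 tested partners ELMO1, which acts downstream of RHOG, had 7.81 CPM in untreated WT and 0.0 in every KO library, while RHOA was highest at 0.38. ILK had partners at either extreme. The kindlin gene FERMT3, of blood cells, averaged 295 CPM in untreated WT and 3.71 in untreated KO, and its relative FERMT2 averaged 0.432 and 54.8 CPM. PGAP2 lay at -0.73 between MPPE1 at -1.70 and PGAP1 at 2.29. ARFIP2, at -0.45, was below all 4 of its listed partners, which ran from ARL1 at 0.00 to PICK1 at 1.40. The TRIM genes compared with TRIM21 (-0.72) and TRIM68 (-0.86) ran from TRIM25 at -0.62 to TRIM27 at 0.54. Of the lowest partners named, TAF6, ORAI2 and ELMO1 lie on chromosome 7, and SEH1L and MPPE1 on chromosome 18. Over these whole chromosomes the untreated medians were -0.78 and -0.52. Of the other lowest partners, FERMT3 lies on chromosome 11, and RRM2, ARL1 and TRIM25 lie on chromosomes 2, 12 and 17. The part of position in the partners' differences was not tested. These are differences between levels in untreated cells on the log2 scale, described without a test.

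**Figure D3:**
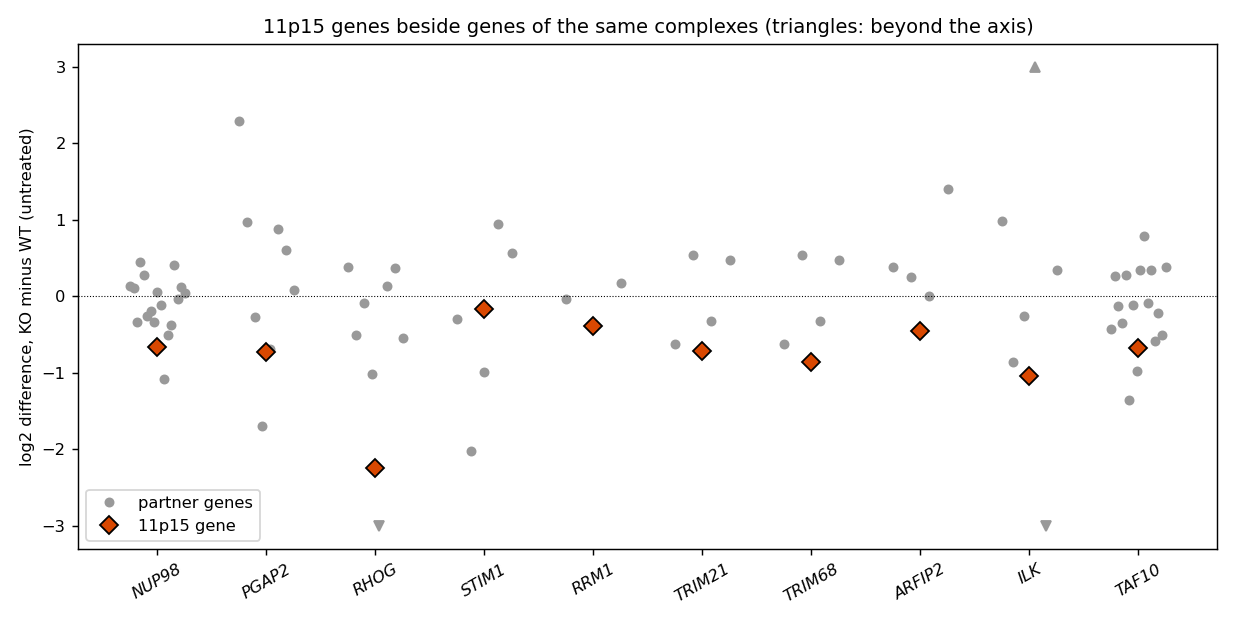
Log2 difference, KO minus WT, in untreated cells (vertical axis) of each of the 10 genes (diamonds) and of its listed partners (grey points). Triangles lie beyond the axis. For TRIM21 and TRIM68 the partners are relatives of the same family. All diamonds are below 0, while 37 of the 70 tested partners are lower and the rest are not.

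Whether the flanking genes answered to butyrate was tested, since the choice of the genes did not use that contrast. The same libraries, untreated and treated, enter both, however. Low untreated KO values that favoured the choice of a gene could also raise its butyrate change in KO and its interaction. None of the 10 passed the threshold in WT by edgeR's quasi-likelihood test with Benjamini-Hochberg adjustment over all genes, where 2.35% of all genes were called. The same test called 0 of the 10 at an unadjusted p under 0.05 in WT, and DESeq2 and limma-voom called 0 there too. In KO 0 of the 10 passed, where 3.4% of all genes were called, and 1 had an unadjusted p under 0.05. Median changes were -0.01 in WT and 0.01 in KO, against 0.02 and 0.00 over all genes. For the interaction, which sets the KO response to butyrate against the WT response, 0 of the 10 and 0.0% of all genes were called (658 genes, or 4.16%, had an unadjusted p under 0.05), and the 10 values ran from -0.19 to 0.85.

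RHOG had the largest change of the 10. In KO it went from 27.3 ± 5.34 CPM to 48.5 ± 0.912 CPM (SD, n = 3), and every treated library was above every untreated one, as for 12.6% of all genes. The log2 change was 0.83 (SE 0.24, edgeR unadjusted p = 0.00441, adjusted p = 0.0797), higher in 3 of 3 replicate numbers. With the replicate number as a block it was 0.82 and passed (edgeR adjusted p = 0.0388). In WT the means were 129 ± 32.1 CPM and 127 ± 32.6 CPM, a change of -0.02 (SE 0.24, edgeR adjusted p = 0.984). The difference between genotypes in this response was 0.85 (SE 0.34, edgeR unadjusted p = 0.0259, adjusted p = 1.0), so a difference was not shown. Over 21 alternatives the KO change passed in 4. DESeq2 gave 0.86 (adjusted p = 0.0185), scaling by library size alone 0.94 (edgeR adjusted p = 0.0377) and the fit without replicate 1 of treated WT 0.83 (edgeR adjusted p = 0.0407), the fourth being the block. The adjusted p ranged from 0.0185 to 0.0979 over the alternatives that kept every library or left out those numbered 1, and from 0.0407 to 0.246 over those that left out 1 library. Without the libraries numbered 1 the change was 0.68 (edgeR adjusted p = 0.0567).

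RRM1 was lower with butyrate in 3 of 3 replicate numbers in each genotype. It went from 213 ± 14.9 to 159 ± 25.7 CPM in WT (-0.42, SE 0.22, edgeR adjusted p = 0.348) and from 162 ± 44.0 to 119 ± 22.4 CPM in KO (-0.45, SE 0.22, edgeR adjusted p = 0.283). In WT the treated libraries were all below the untreated ones, as was so for 10.4% of all genes. TRIM21 showed the same separation in WT, from 10.3 ± 1.59 to 7.03 ± 0.139 CPM (-0.55, SE 0.34, edgeR adjusted p = 0.442), and in KO it went from 6.22 ± 2.46 to 4.76 ± 0.832 CPM with overlap (-0.39, edgeR adjusted p = 0.581). ARFIP2 was higher with butyrate in 3 of 3 numbers in each genotype, at 0.40 (SE 0.22, edgeR adjusted p = 0.372) in WT and 0.21 (SE 0.22, edgeR adjusted p = 0.654) in KO. None of these passed the threshold, which does not show that the levels were the same.

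For the other 6 genes the butyrate change did not pass in either genotype. NUP98 went from 191 ± 20.9 to 204 ± 26.5 CPM in WT and from 121 ± 16.9 to 123 ± 24.0 CPM in KO. STIM1 went from 73.6 ± 21.8 to 77.2 ± 27.7 CPM in WT and from 65.5 ± 17.9 to 66.7 ± 13.7 CPM in KO. PGAP2 changes were -0.16 (SE 0.2) in each genotype, those of TAF10 0.18 and -0.01 (SE 0.2), and those of TRIM68 0.00 and 0.31 (SE 0.28). ILK, with few counts, gave -0.48 (SE 0.64) and -0.66 (SE 0.66). Adjusted p-values of these genes in edgeR ran from 0.593 to 1.0.

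**Figure D4:**
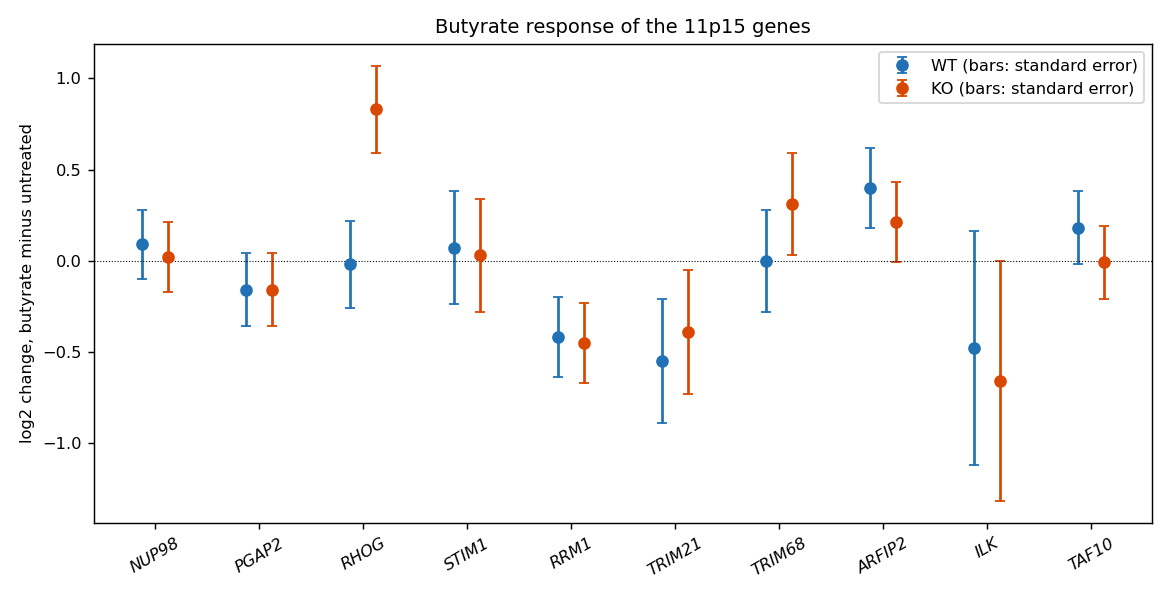
Log2 change with butyrate (vertical axis, treated minus untreated) of the 10 genes in WT and KO, with bars for the standard error of the edgeR fit. RHOG in KO, at 0.83, lies farthest from 0, and most other bars cross or come close to 0.

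Of the globins between the flanking genes, HBE1, the embryonic epsilon-globin gene, rose in KO, from a mean of 17.2 CPM in untreated to 244 CPM in treated cells (3.83, SE 0.63, edgeR adjusted p = 0.00995). In WT it averaged 4348 and 15792 CPM (1.86, SE 0.58, edgeR adjusted p = 0.117). The block on replicate number gave HBE1 an edgeR adjusted p of 0.0203 in WT. HBG1 and HBG2, whose values are uncertain for shared reads, were at 1.42 and 1.35 in WT (edgeR adjusted p = 0.0669 and 0.0796), and passed with the block (edgeR adjusted p = 0.00452 and 0.00612). In KO they were at 0.47 and 0.44, with overlap (edgeR adjusted p = 0.51 and 0.544). Of the 64 tested 11p15 list genes, butyrate called APBB1 in WT, which rose from 2.37 to 9.1 CPM (1.95, SE 0.46, edgeR adjusted p = 0.0473). In KO it called DCHS1, which rose from 3.25 to 19.0 CPM (2.54, SE 0.62, edgeR adjusted p = 0.043), and TEAD1, a DNA-binding partner of YAP, which fell from 45.2 to 26.4 CPM (-0.78, SE 0.18, edgeR adjusted p = 0.0378). Over all genes butyrate called 2.35% in WT and 3.4% in KO. The median change of the 11p15 list was 0.01 in WT and 0.00 in KO.

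Among the 70 partners, butyrate called 2 in WT and 3 in KO by edgeR, where 2.35% and 3.4% of all genes were called. Nothing about the partners as a group is read from these counts. STIM2 rose in WT from 17.9 ± 6.12 to 40.6 ± 10.5 CPM (1.18, SE 0.28, edgeR adjusted p = 0.0484). ORAI2, the channel gene downstream of STIM1, rose in KO from 11 ± 0.98 to 21 ± 5.66 CPM (0.93, SE 0.22, edgeR adjusted p = 0.0375). DOCK2, an exchange factor of blood cells that works with ELMO proteins downstream of RHOG, rose in KO from 16.2 ± 6.72 to 64.2 ± 31.1 CPM (1.98, SE 0.37, edgeR adjusted p = 0.0179). TAF9, a partner of TAF10 in TFIID and SAGA, fell in both, from 182 ± 44.5 to 97.0 ± 2.83 CPM in WT (-0.91, edgeR adjusted p = 0.0409) and from 233 ± 35.7 to 128 ± 17.4 CPM in KO (-0.86, edgeR adjusted p = 0.0393). With the replicate block 5 partners passed in WT and 7 in KO, where 1361 and 1852 of all 15805 genes did. No partner passed for the interaction by edgeR, where the adjusted p of DOCK2 was 0.409.

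The gene most like each member was taken as the smallest root mean square distance between log2 CPM profiles centred over the 12 libraries, among genes with a mean of at least 50 counts. Of those with a RefSeq position none lay within 2 Mb of the cluster, and for RHOG it was CAT, the catalase gene, farther along chromosome 11, at a distance of 0.254 and with KO minus WT differences of -1.87 and -1.22. The nearest for PGAP2 was AGAP12P at 0.086, for ARFIP2 ZDHHC12 at 0.127, for TAF10 MYL12B at 0.141 and for NUP98 VANGL1 at 0.142. STIM1 was nearest to PEAK1 (0.152), RRM1 to PHF14 (0.164), TRIM68 to MOB1A (0.203), TRIM21 to LOC644656 (0.246) and ILK to TRRAP (0.359). Among the 10 themselves the closest were PGAP2 and TAF10 at 0.209, on opposite sides of the cluster, followed by NUP98 and ARFIP2 at 0.284. RHOG lay 0.659 from the nearest of the others. These profiles include the KO minus WT difference that chose the 10, so genes with a like difference come out near. PHF14 and TRRAP lie on chromosome 7 and MYL12B on chromosome 18, and the other nearest genes with a position lie elsewhere. Shared regulation was not tested. These distances are descriptions over libraries that share depth and composition.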

How the data were processed

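The authors deposited raw counts as 1 table, with a row per gene symbol and a column for each of 12 libraries. Per the submitters' processing notes FastQC 0.12.1, STAR 2.7.11b and hg38 were used; the counting tool, annotation and use of strand are not given in the sources used here. Columns were matched to samples by library name, and 0 columns were left unused. The members and gene lists were chosen with earlier results of these data known. All 10 members are named, with list genes called in a butyrate contrast, each member's lowest and highest partner and its most similar gene.

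In R 4.3.3 with edgeR 4.0.16, filterByExpr (minimum count 10) left 15805 genes, TMM scaled the libraries, and all 12 libraries entered 1 quasi-likelihood fit that gave each group its own mean. Benjamini-Hochberg adjustment ran over every gene tested, with a threshold of 0.05. Fits were tested on simulated data. RefSeq positions matched 98.3% of tested genes. Alternatives were DESeq2 1.42.0, limma-voom (limma 3.58.1), other scalings, filters and samples, and the replicate block. Libraries with the same number deviated together in every pair (correlations 0.147 to 0.595), against -0.512 to 0.343 for different numbers. Deviations were taken from means of 3 libraries, which ties these ranges to each other. The main fit had no term for the number, and only the replicate block took the numbers to pair samples. No replicates were the same library by chi-square.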

Additional observations from a re-analysis of the deposited data

How the results depend on the processing

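Genes called across all genes moved most. For butyrate in WT (372 by the main analysis) DESeq2 called 1331, limma-voom 214, the fit on only the groups compared 63, the replicate block 1361 and the fit without the libraries numbered 1 1884, with 43 to 1243 when 1 library was left out. For butyrate in KO (537) DESeq2 called 1538, the filter of at least 10 counts in every library 304, the block 1852 and the fit without the libraries numbered 1 2164, with 48 to 1039 when 1 library was left out. For the interaction (0) the counts were 81 in DESeq2, 1 with that filter, 2 with no filter, 3 with the block and 9 without the libraries numbered 1, with 0 to 2 when 1 was left out. For KO minus WT (3574 untreated, 3009 treated) that filter gave 2334 and 1947, only the groups compared gave 1802 treated, and the block 4612 treated; leaving out 1 library gave 2485 to 4318 and 2014 to 3477. Members called for butyrate in KO came to 1 (RHOG) in DESeq2, with library size alone and with the block, and to 0 to 1 when 1 library was left out. Without olfactory receptor genes, a setting added after seeing the data, the untreated median of other genes near the cluster was -0.73. Under 1 and 5 Mb windows it was -5.99 and -0.77, and the treated median under 1 Mb was -6.37; with genes at 0 set at their bound the 1 Mb medians were -1.83 and -2.04. That filter gave -0.66 and -0.76, only the groups compared -0.72 untreated, and leaving out 1 library -1.66 to -0.85 and -1.26 to -0.89. The filter tests fewer genes and some settings use fewer samples; beyond that the cause was not tested.

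Of 856 values of single members under alternatives, 827 stayed on their side of the threshold or, untested, within the spread between replicates, 4 newly passed, all for RHOG, and 1 moved, RRM1 to -0.69. Within that spread the untreated genotype difference of STIM1 turned sign, to 0.09, without replicate 2 of untreated WT. A further 24 values turned sign, all of them uncalled butyrate changes. TAF10 in KO (-0.01) came to 0.02 in DESeq2 and with its size factors, 0.06 with the filter, 0.11 with library size alone and 0.01 with only the groups compared, and ran from -0.08 to 0.12 when 1 library was left out. RHOG in WT came to 0.04 with the filter and ran from -0.26 to 0.14. With 1 library left out, NUP98 ran from -0.02 to 0.17 in WT and from -0.15 to 0.14 in KO, STIM1 from -0.15 to 0.33 and from -0.14 to 0.26, and TAF10 in WT from -0.02 to 0.3. The replicate block changed no other call on the 10 genes. Depth limits ILK, whose few counts gave the largest errors.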

Other observations

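Olfactory receptor genes directly beside the beta-globin cluster, chosen after their values were seen, were counted in WT and close to absent from KO. Of 7 such genes tested within 1 Mb, 6 had 0 counts in all 6 KO libraries. Most had few counts in WT as well. Per WT library OR51B2 had 0 to 17 counts, OR52A5 1 to 19, OR51I2 5 to 23, OR51I1 5 to 31 and OR52D1 4 to 51. OR51B4 had 44 to 205 counts per WT library. OR51B5 had 179 to 749 counts per WT library, 2428 in all, and 0 to 5 per KO library, 11 in all. They passed the filter on low counts only through WT, so no share of them is read as a result. The flanking genes farther out kept 21.1% to 89.0% of their WT level in untreated KO.

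TRIM22, a further TRIM gene on the other side of the cluster from TRIM21 and TRIM68, was counted in more reads in KO. It had 0, 7 and 6 counts in untreated WT and 13, 20 and 84 in untreated KO. With butyrate it had 0, 0 and 5 counts in WT and 63, 118 and 98 in KO. TRIM22 passed the filter on low counts only through KO, so no result is read from this separation. Its neighbours TRIM5 and TRIM6 had log2 differences, KO minus WT, of -0.64 and -0.92 in untreated cells and of -0.40 and -0.48 in treated cells. These genes were chosen after their values were seen, and the cause was not tested.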
